A study of Caenorhabditis elegans with 4 samples.

Results

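Broad domains of EPC-1 binding are the regions of 3 kb or more that 2 replicate immunoprecipitations marked together in whole L3 larvae of Caenorhabditis elegans. They were chosen by width: all peaks of both lists that overlapped by at least 1 bp were merged, and merged regions with a peak of each replicate and a length of 3000 bp or more were kept. This gave 384 domains, out of 2672 shared regions and 3537 merged regions in all. The remaining 2288 shared regions, all under 3 kb, are the shorter shared regions against which the domains are set. Domains held 439 of the 3455 peaks of replicate 1 and 406 of the 2833 peaks of replicate 2.

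The animals were of strain N2, the laboratory wild type, and nothing in the labels sets the replicates apart by genotype or treatment. Frozen, ground tissue was crosslinked in EGS, a long amine-reactive linker, for 20 min and in EGS with formaldehyde for a further 10 min, while a second protocol text in the labels describes formaldehyde alone. Both immunoprecipitations used antibody SDQ0820, and the 2 input DNA samples of the study were not analysed here. Whole larvae mix all tissues of the animal, so a wide peak can join signal from different cells. The labels do not say whether the replicates came from separate cultures, so their spread may be technical.

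EPC-1 belongs to the Enhancer of Polycomb family of chromatin proteins. In yeast its counterpart Epl1 is the subunit that holds the catalytic core of the NuA4 histone acetyltransferase together and brings it to the nucleosome. In worms epc-1 is among the genes that restrain vulval induction, together with the TIP60-type acetyltransferase gene mys-1 and with trr-1. Histone acetylation usually sits at active promoters. Chromosomes of the worm are holocentric, with gene-rich centres and repeat-rich, highly recombining arms. No gene is named at a domain below, because the only gene table at hand is of another genome build than the WS190 coordinates of the peaks.

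Domain widths ran from 3000 to 19453 bp, with a median of 3836.5 bp (quartiles 3326 and 4917.5), whereas the shorter shared regions had a median of 1688 bp (1505 and 2011.25). Most domains lay close to the limit. Those of 3 to 4 kb numbered 210 (54.7%), those of 4 to 5 kb 81 (21.1%), those of 5 to 7 kb 72 (18.8%) and those of 7 kb or more 21 (5.47%). The limit fell in a continuous range of widths. Just inside it stood regions of 3000 bp on chromosomes II (II:15137747-15140746) and IV (IV:9992917-9995916) and of 3001 bp on III (III:10757996-10760996), and just outside it regions of 2999 bp on II (II:12993859-12996857), 2998 bp on V (V:8037880-8040877) and 2995 bp on I (I:9771829-9774823). Although the domains made up 14.4% of shared regions, they held 1.69 Mb, which was 29.0% of the bases under shared regions and 1.70% of the 99.9 Mb that the chromosomes span from first peak to last.

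The widest domains differed in how they were built. The widest of all lay at II:10541077-10560529 (19453 bp). Replicate 2 covered it with a single peak that scored 211, while replicate 1 had a peak of 12862 bp with a score of 242 and, after a short gap, one of 5886 bp with a score of 1810. The score is the authors' own value for each peak, on a scale that is not stated, and it runs from about 50 to a tied upper value of 3100 that a few peaks exceed. A second domain at II:1232840-1246040 (13201 bp), was likewise a single peak of 13017 bp in replicate 2 (score 677) and a pair of peaks of 5884 and 3603 bp in replicate 1 (scores 1536 and 442). By contrast the domain at X:16928765-16941708 was 1 peak in each list, of 12344 bp in replicate 1 and 12944 bp in replicate 2, with a score of 3100 in both.

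Chromosome V held 4 of the 10 widest, and 52 of all 384 domains (13.5%). The 10 were picked by width, and nothing is read from this count. The region at V:13649543-13661762 (12220 bp) had the most peaks of any domain, 3 in replicate 1 and 2 in replicate 2, and the replicates had only 56.9% of its peak-covered bases in common. Those at V:6219409-6229893 (10485 bp; scores 2807 in replicate 1 and 1994 in replicate 2) and at V:7915443-7925586 (10144 bp; 3100 and 1913) were single peaks in both lists and shared 97.8% and 97.9% of their bases. The fourth, at V:1149027-1159030 (10004 bp), was 2 peaks in replicate 1 and 1 in replicate 2, with highest scores of 3100 and 2549.

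Of the others, a domain at II:14597570-14607701 (10132 bp) reversed the usual pattern, with 1 peak in replicate 1 (score 188) and 2 in replicate 2 (832 and 408). The widest on III lay at III:343150-353049 (9900 bp; 2 peaks in replicate 1 and 1 in replicate 2), the widest at I:7078977-7088439 (9463 bp) and the widest at IV:17097420-17105003 (7584 bp). The domains on I and IV were single peaks in both lists, with 99.0% and 98.3% of their bases in common. Wide domains thus included both continuous peaks seen alike in the replicates and strings of peaks that 1 replicate joined and the other did not.

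**Figure D1:**
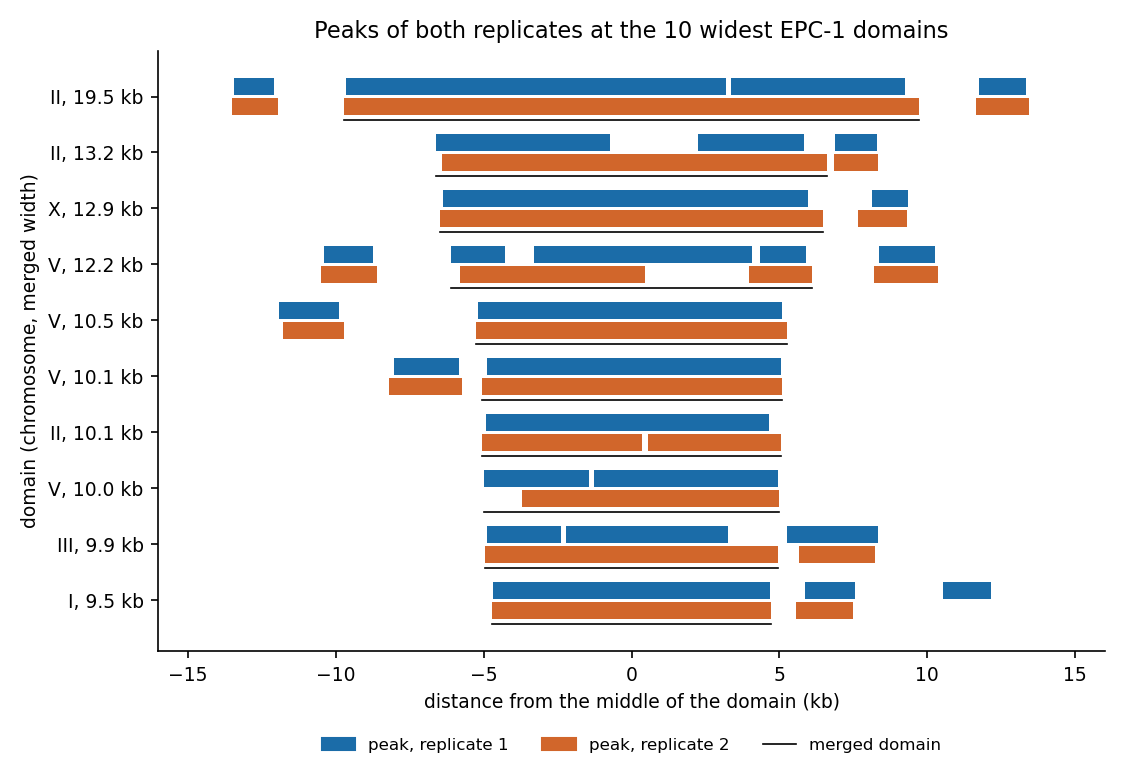
Peaks of replicate 1 (upper bar) and replicate 2 (lower bar) at the 10 widest domains, drawn by distance from the middle of the domain in kb, with the merged domain as a thin line; neighbouring peaks that do not overlap it are also drawn. Those on X and I and 2 of those on V were a single peak in both lists, and the others were split in 1 or both.

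Over all domains, single peaks were the rule. Of the 384 domains, 317 (82.6%, exact 95% interval 78.4 to 86.2) were made of 1 peak of each replicate, 45 of 2 replicate 1 peaks and 1 replicate 2 peak, 13 of 1 and 2, 8 of 2 and 2, and 1 of 3 and 2. The 67 with more than 1 peak of a replicate were 17.4% (13.8 to 21.6), against 2 of 2288 shorter shared regions and 2.58% of all shared regions, and since the merging itself lengthens a region, nothing is read from this difference. Their share was 11.0% at 3 to 4 kb, 22.2% at 4 to 5 kb, 23.6% at 5 to 7 kb and 42.9% (9 of 21) at 7 kb or more. Gaps between neighbouring peaks of 1 replicate inside a domain numbered 55 in replicate 1, with a median of 172 bp, and 22 in replicate 2, with a median of 113 bp; the longest were 2955 and 3517 bp. Replicate 1 was thus the more often split.

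After the one on V, most peaks were held by domains at III:3795639-3802655, at I:7471924-7477500, and at IV:2992726-2997461 and at IV:16862555-16867125, each with 2 peaks of each replicate and the widest of the 8 domains so built. Their widths were 7017, 5577, 4736 and 4571 bp. Few domains reached 3 kb only through the merging of peaks that were each under 3 kb. A single peak of 3 kb or more was present in both replicates at 221 domains (57.6%), in replicate 1 only at 43 (11.2%) and in replicate 2 only at 104 (27.1%). The bases covered by both replicates reached 3 kb at 255 of the 384 domains (66.4%). At 16 (4.17%) no single peak reached 3 kb, and 7 of these were 1 peak of each replicate lying offset. The extreme case, named after its values were seen, was at I:2579490-2584365 (4876 bp), where a replicate 1 peak of 2234 bp and a replicate 2 peak of 2944 bp had 302 bp in common.

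The replicates covered similar lengths in most domains. In replicate 1 the peaks of a domain covered a median of 3542.5 bp (quartiles 3026 and 4423.5), and in replicate 2 a median of 3682 bp (3169.5 and 4603.5). The ratio of covered bases, replicate 2 to replicate 1, had a median of 1.03 (quartiles 0.97 and 1.18) and ran from 0.45 to 2.89. It lay within 10% of equality in either direction in 206 domains (53.6%), against 1506 of the shorter shared regions (65.8%). Replicate 2 was the wider in 246 domains (64.1%) and replicate 1 in 138. Among shorter shared regions replicate 2 was the wider in 1668 (72.9%) and replicate 1 in 616, with a median ratio of 1.05. A domain can be kept where only 1 list is wide, so the ratio is not independent of the choice and is given as a description.

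Large disagreements were few. Replicate 2 covered over 1.5 times the bases of replicate 1 in 28 domains (7.29%), where 2.54% of all shared regions did, and replicate 1 covered over 1.5 times those of replicate 2 in 15 (3.91%), where 1.05% of all shared regions did. The domain with the highest ratio, at II:11756160-11761585, had a replicate 1 peak of 1875 bp inside a replicate 2 peak of 5426 bp, yet scored 3100 and 2280. After it came domains at I:10414631-10418074 (1216 bp in replicate 1 and 3444 bp in replicate 2), at X:9604872-9608125 (1333 and 3254 bp), at II:5542871-5547475 (1954 and 4605 bp) and at IV:13929514-13933299 (1736 and 3786 bp). These 4 scored 60.4 to 118 in replicate 1 and 111 to 416 in replicate 2, far below the first.

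In the other direction the lowest ratio was at V:18777968-18781213 (3246 bp in replicate 1 against 1457 bp in replicate 2). It was followed by the domains at III:5840430-5843455 (3026 and 1492 bp), at V:20375324-20380803 (5480 and 2765 bp), at II:6925601-6929177 (3541 and 1858 bp) and at V:11817548-11825699 (8152 and 4603 bp). The last of these is the only one of the 10 that exceeded 8 kb in width. Offset ends lengthen a merged region and so enter the choice by width, and the following values are a description. The left ends of the replicates were a median of 109.5 bp apart in domains, against 66 bp in shorter shared regions, and the right ends 108.5 bp, against 64 bp. The median share of bases in common was 89.8% of the domain's covered bases, against 91.5%. Fewer than 50% were in common at 11 domains (2.86%, 1.44 to 5.07), against 4 shorter shared regions (0.175%, 0.0477 to 0.447).

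**Figure D2:**
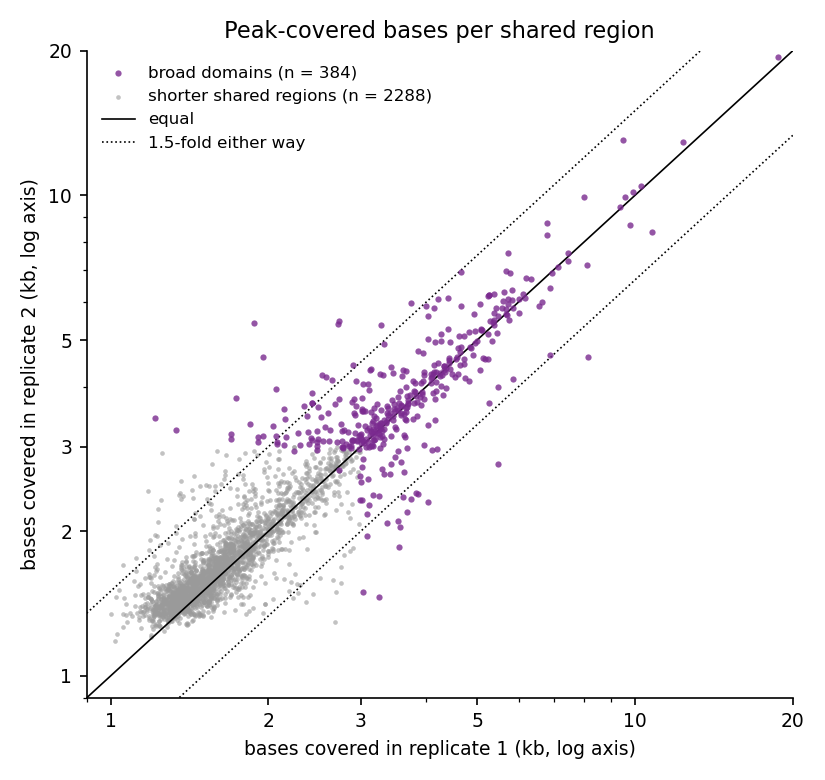
Bases covered by peaks of replicate 1 (x axis, kb, log scale) and of replicate 2 (y axis, kb, log scale) in each of the 384 broad domains and the 2288 shorter shared regions, with lines for equal width and for a ratio of 1.5 in either direction. Most domains lie near the line of equality, and 28 lie above the upper dotted line and 15 below the lower one.

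Because the merged width uses both lists, wide peaks were also chosen in 1 replicate and measured in the other. Replicate 1 had 275 peaks of 3 kb or more (7.96% of its list) and replicate 2 had 330 (11.6%), a mean of 302.5 ± 38.9 (SD, n = 2). Of the 275, 267 overlapped a replicate 2 peak, and that peak was itself 3 kb or more in 224 (83.9%, exact 95% interval 78.9 to 88.1), with a median of 3907 bp. Of the 330, 326 overlapped a replicate 1 peak, which reached 3 kb in 222 (68.1%, 62.7 to 73.1), with a median of 3442 bp. Among narrower peaks with a partner, the partner reached 3 kb in 5.89% (4.99 to 6.89) of those chosen in replicate 1 and 2.28% (1.72 to 2.97) of those chosen in replicate 2. Among peaks with a partner, one chosen as wide in 1 list was thus wide in the other more often than a narrow one was, in both directions. Of the narrower peaks, 718 of 3180 in replicate 1 and 135 of 2503 in replicate 2 had no partner. The intervals cover counting error only, peaks of 1 list are not replicates, and no test was made. At 28 of the 326 places chosen in replicate 2, and at 9 of the 267 chosen in replicate 1, the partner was under 2 kb.

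Scores come from the same peak calls as the widths and are given without a test. By the highest peak of each replicate, domains had a median score of 1201 in replicate 1 (quartiles 511 and 2571) and 894 in replicate 2 (434 and 2273), against 312 (154 and 709) and 221 (105 and 572) in shorter shared regions. A score of 3100 or more in both lists was reached by 58 domains (15.1%), where 7.3% of all shared regions reached it. Broad regions became more frequent with the score: of the 668 shared regions in the lowest quartile class by mean score percentile 2.25% were broad, in the next class 6.74%, in the third 14.8%, and in the highest 33.7%. Among the domains width and score had a Spearman rho of 0.35 in replicate 1 and 0.28 in replicate 2 across 384 domains. Across the 2288 shorter shared regions it was 0.61 and 0.63. The classes were cut by width and many scores are tied at 3100, which affects rho, so nothing is read from this difference. Width and score can both depend on the depth of the same library.

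Median scores were higher in wider classes up to 7 kb. In replicate 1 they were 959 at 3 to 4 kb, 1365 at 4 to 5 kb, 1766 at 5 to 7 kb and 1810 at 7 kb or more, and in replicate 2 they were 728, 1023, 1357 and 1162 for the same classes. The highest of a domain's peaks is taken, so a domain with several peaks has more chances of a high value. Replicate 1 scored the higher in 232 domains (60.4%), replicate 2 in 98, and 54 were tied. Among shorter shared regions replicate 1 scored the higher in 1650 (72.1%), replicate 2 in 505, and 133 were tied. The replicate 1 score was over 1.5 times that of replicate 2 in 87 domains (22.7%), where 32.7% of all shared regions did so. The reverse held in 36 domains (9.38%), where 5.58% of all shared regions did so.

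The highest mean score percentiles among domains were at III:12366793-12371010 (3100 in replicate 1 and 3223 in replicate 2) and at III:4192713-4197599 (3100 and 3123), at IV:4747130-4750838 (3147 and 3100) and at V:723656-728757 (3128 and 3100). The next, at I:533764-538055, stood at 3100 in both lists with many others. The lowest mean score percentiles were at III:9701064-9704811 (71.0 in replicate 1 and 80.9 in replicate 2) and at III:5840430-5843455 (119 and 54.1), at II:10932241-10936007 (69.5 and 98.8), and at X:7230220-7233526 (124 and 60.9) and at X:11471310-11474993 (54.5 and 176). These 5 combined a width of over 3 kb with scores of 54.1 to 176, and 19 of the 210 domains of 3 to 4 kb (9.05%) were below the median score of both lists, against 893 of 2288 shorter shared regions (39.0%).

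**Figure D3:**
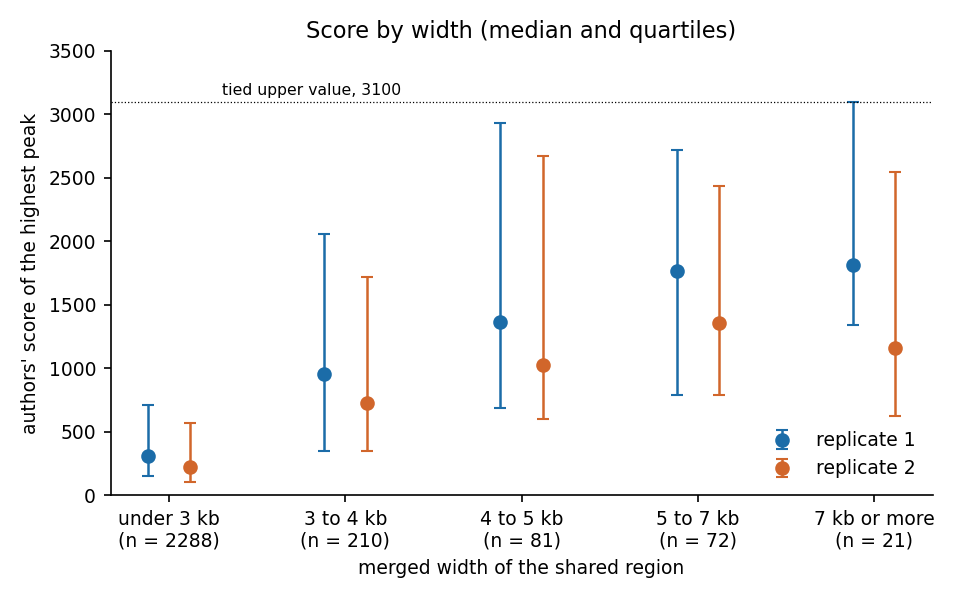
Authors' score of the highest peak (y axis, no stated unit) by merged width of the shared region (x axis), as median and quartiles for replicate 1 and replicate 2. The median was 312 and 221 below 3 kb and 959 and 728 at 3 to 4 kb, with wide overlap between the classes above 3 kb.

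Every chromosome carried broad domains, but not evenly. Chromosome III had 92, I 83, IV 76, II 58, V 52 and X 23. Per Mb of the span between the outermost peaks these were 6.69 on III, 5.52 on I, 4.37 on IV, 3.80 on II, 2.50 on V and 1.31 on X, so the density on III was 5.12 times that on X. For shorter shared regions the same ratio was 2.76. Peaks of 3 kb or more in the single lists had the same order, with 5.27 ± 0.257 per Mb on III, 4.19 ± 0.376 on I, 3.39 ± 0.812 on IV, 3.02 ± 0.649 on II, 2.09 ± 0.0339 on V and 1.05 ± 0.281 on X (SD, n = 2). In this order IV overlapped both of its neighbours, I and II, across the lists, whereas III, I, II, V and X did not overlap each other.

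Shorter shared regions were also unevenly spread. Taken as a share of shared regions, broad domains were 16.8% on III (exact 95% interval 13.7 to 20.1), 16.6% on IV (13.3 to 20.4), 13.6% on I (11.0 to 16.6), 13.4% on II (10.4 to 17.0), 13.4% on V (10.1 to 17.2) and 9.79% on X (6.31 to 14.3). All 6 intervals overlapped. The 5 autosomes together had 14.8% (13.4 to 16.3), which overlaps the interval of X.

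Domains were sparse on X. The density of X domains was 0.30 times that of autosomal ones, and that of shorter shared regions 0.48 times. In single lists the X to autosome ratio was 0.27 in replicate 1 and 0.33 in replicate 2 for peaks of 3 kb or more, a mean of 0.30 ± 0.045 (SD, n = 2), against 0.55 and 0.48 for narrower peaks, a mean of 0.51 ± 0.046 (SD, n = 2). The difference between wide and narrower peaks was thus larger than the spread between replicates, and no test of it was made. Scores moved in the same direction: X domains had a median score of 731 in replicate 1 and 462 in replicate 2, against 1250 and 924 in autosomal domains, and 2 of 23 were at 3100 in both lists, against 56 of 361. Shorter shared regions on X also scored lower, with medians of 248 and 167, against 322 and 231 on the autosomes. The part of the lower scores in the sparsity of X domains was not tested.

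X held 5.99% of the domains (exact 95% interval 3.83 to 8.85), against 9.27% of shorter shared regions (8.11 to 10.5). With the limit at 2500 bp these shares were 6.70% (4.83 to 9.01) and 9.40% (8.18 to 10.7). At 4000 bp they were 5.75% (2.79 to 10.3) and 9.01% (7.91 to 10.2). At each of these limits the intervals overlapped. At 5000 bp, a limit chosen after the data were seen, X held 9 of 93 regions above it (9.68%, 4.52 to 17.6) and 8.76% (7.70 to 9.92) of those below, so the direction turned, on few regions and with overlapping intervals. The median width of X domains was 3904 bp, against 3825 bp on the autosomes, and 9 of 23 (39.1%, 19.7 to 61.5) were 5 kb or more, against 84 of 361 (23.3%, 19.0 to 28.0), again with overlapping intervals. By width class, X held 13 of 210 domains at 3 to 4 kb (6.19%) and 1 of 81 at 4 to 5 kb (1.23%). It held 6 of 72 at 5 to 7 kb (8.33%) and 3 of 21 at 7 kb or more (14.3%). Of the 23 X domains 1 (4.35%), at X:323535-326553, had more than 1 peak of a replicate, against 66 of 361 autosomal domains (18.3%). Besides the 12944 bp domain near the right end, the longest on X lay at X:4139569-4148317 (8749 bp; 6792 bp in replicate 1 and 8749 bp in replicate 2; scores 1409 and 782) and at X:3110620-3118077 (7458 bp; 7458 and 7294 bp; scores 1654 and 1019). The other X domain at 3100 in both lists, at X:11603033-11606936, was 3904 bp wide.

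**Figure D4:**
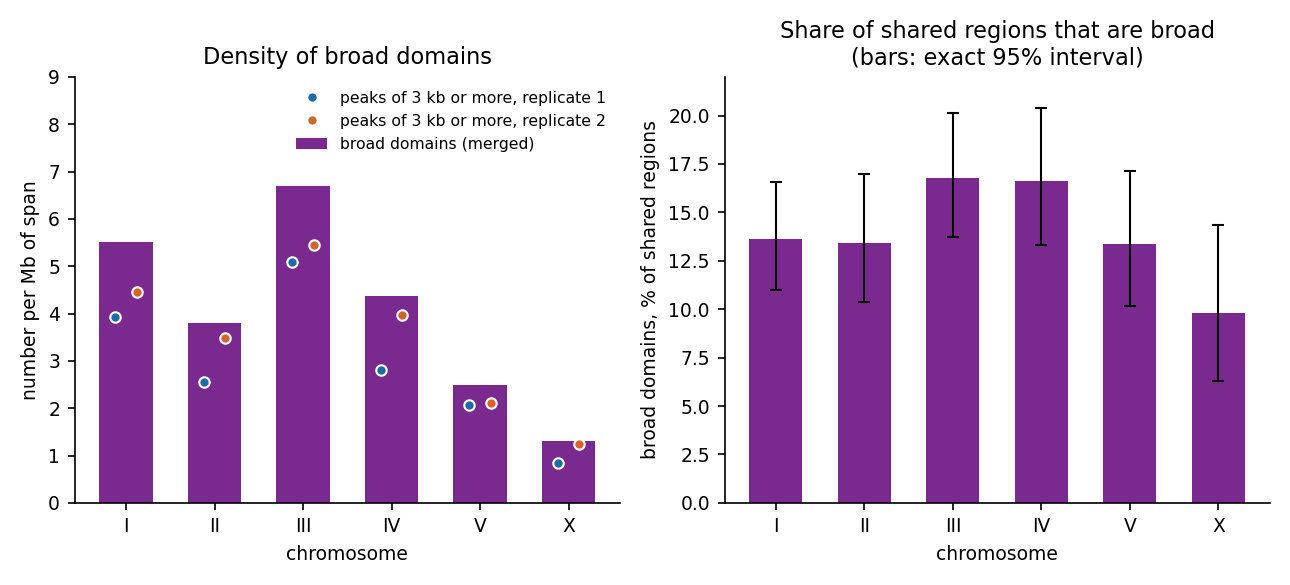
Left, broad domains per Mb of span on each chromosome (bars) and peaks of 3 kb or more per Mb in each replicate (points); right, broad domains as a percentage of shared regions with exact 95% intervals. Density ran from 6.69 per Mb on III to 1.31 on X, while the intervals of the shares overlapped.

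Along the chromosomes the domains followed the shorter regions. Of the 384 domains, 144 (37.5%, exact 95% interval 32.6 to 42.6) had their midpoint in the middle 33.3% of the span, against 882 of 2288 shorter shared regions (38.5%, 36.6 to 40.6). In the single lists the central share of peaks of 3 kb or more was 37.1% in replicate 1 and 37.6% in replicate 2, a mean of 37.3% ± 0.343 (SD, n = 2), against 38.9% and 37.2% of narrower peaks, a mean of 38.0% ± 1.21 (SD, n = 2). The intervals of the domains and of the shorter shared regions overlapped, and no test of a difference was made. The left outer part held 106 domains (27.6%) and the right outer part 134 (34.9%), against 672 (29.4%) and 734 (32.1%) of shorter shared regions. No interval was computed for these outer parts. Chromosome II had 6 domains on the left and 25 on the right, III 24 and 36, and IV 24 and 29. On V there were 16 and 17 and on X 6 and 7, whereas on I the left held more, 30 against 20. Shorter shared regions on the left and right numbered 92 and 127 on II, 122 and 159 on III and 116 and 117 on IV. They numbered 98 and 92 on V, 72 and 83 on X and 172 and 156 on I.

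Single chromosomes departed from this average, with few domains in each. On II the left outer part held 6 of 58 domains (10.3%), against 92 of 374 shorter regions (24.6%), and the centre held 27 (46.6%; 33.3 to 60.1), against 155 (41.4%; 36.4 to 46.6). On IV the centre held 23 of 76 domains (30.3%; 20.2 to 41.9), against 148 of 381 (38.8%; 33.9 to 43.9), and on X 10 of 23 (43.5%; 23.2 to 65.5), against 57 of 212 (26.9%; 21.0 to 33.4). For each of these centres the interval of the domains overlapped that of the shorter regions. With the span cut into 10 equal bins and pooled over chromosomes, the seventh bin held the most domains, 57 (14.8%; 11.4 to 18.8), and the first the fewest, 25 (6.51%; 4.26 to 9.46); shorter regions had 10.9% and 8.78% there.

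**Figure D5:**
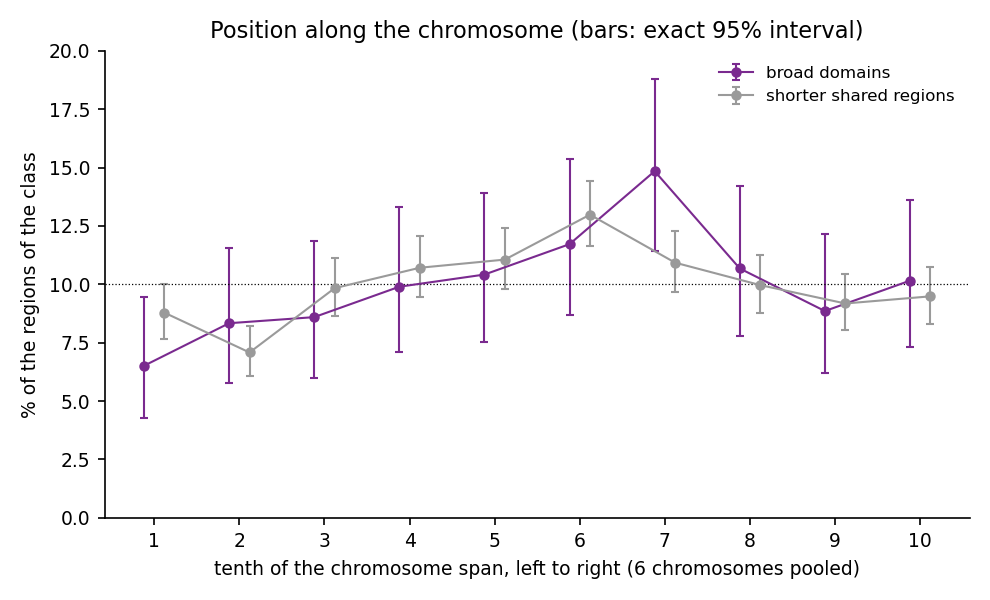
Percentage of the broad domains and of the shorter shared regions (y axis) in each of 10 equal bins of the chromosome span, from left to right, pooled over 6 chromosomes, with exact 95% intervals; the dotted line marks an even spread. The domains peak at 14.8% in the seventh bin, and the intervals of the classes overlap in all 10.

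Domains were far apart on the whole and close together in places. Midpoints of neighbouring domains were a median of 137 kb apart (quartiles 59.0 and 319), with a range of 3.69 to 1733 kb. The median was 0.53 times the span per domain of 260.2 kb, and for shorter shared regions, at 24.7 kb, it was 0.57 times the span per region. Of 378 neighbouring pairs of domains, 28 (7.41%) were within 10 kb and 49 (13.0%) within 20 kb, while 22 were over 1 Mb apart. Of 2282 pairs of the more numerous shorter shared regions, 26.7% were within 10 kb and 44.7% within 20 kb, and none was over 1 Mb apart. These shares depend on how many regions a class has. The median distance between domains was smallest on III, at 89.7 kb, and largest on X, at 713 kb, where no pair was closer than 67.4 kb.

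The closest pairs were all on chromosome I. They were 115 bp apart at I:13054892-13057963 and I:13058079-13062976, 121 bp apart at I:2579490-2584365 and at I:2584487-2588738, and 244 bp apart at I:12038795-12042486 and at I:12042731-12045931. Such pairs would count as 1 domain if short gaps were joined. The next shared region after a domain was again a domain in 66 of 384 cases (17.2%, 13.5 to 21.3), and after a shorter region a domain followed in 318 of 2282 (13.9%, 12.5 to 15.4), with overlapping intervals. Uninterrupted runs of domains, with no shorter shared region between them, were mostly single: 269 domains stood alone, 78 in 39 pairs, 18 in 6 runs of 3, 12 in 3 runs of 4 and 7 in a single run.

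That run of 7 spanned 261 kb at IV:4400277-4661682. Its domains were 3020 to 5767 bp wide. The lowest score among them was 223 in replicate 1 and 227 in replicate 2, and the highest was 3100 in both lists. A denser group lay at I:2855004-2879155, where 4 domains of 3889 to 4478 bp followed each other within 24.2 kb. The last 2 of them scored 3100 in both lists. On III a run of 4 within 31.0 kb, at III:7707981-7739026, had lower scores from left to right in both lists. They were 2928, 2146, 464 and 118 in replicate 1, and 2581, 1078, 404 and 127 in replicate 2.

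Among windows of 500 kb, 45 of 197 (22.8%) held no domain and 19 held 5 or more, with 110 domains between them. The fullest had 9, at I:2515893-3015892, and included the run of 4 on chromosome I. It was followed by 8 at II:11518067-12018066 and 7 at III:9514049-10014048. These windows held 19, 16 and 20 shorter shared regions. Across the windows the counts of the classes had a Spearman rho of 0.53, which is a description over neighbouring stretches of the same chromosomes. The longest stretches with no domain were at X:326554-2056417 (1730 kb, with 23 shorter shared regions inside), at X:8023523-9604871 (1581 kb, with 16) and at X:4526863-6089513 (1563 kb, with 12).

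Other EPC-1 peaks stood near most domains. From the edge of a domain to the nearest other merged region of either list the median was 3.65 kb (quartiles 1.25 and 10.5), against 5.60 kb (1.94 and 14.4) from a shorter shared region. A neighbour lay within 1 kb of 87 domains (22.7%) and of 320 shorter regions (14.0%). A wide region reaches further on both sides, so this distance is not independent of the width. The most isolated domains were at V:7432124-7435971 (139 kb from the nearest peak), at IV:2494459-2497860 (101 kb) and at X:16610701-16614086 (67.2 kb). All 3 were single peaks in both lists, 3386 to 3848 bp wide.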

How the data were processed

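The submitters' processing notes name BWA as the aligner. Each deposited list holds the peaks the authors called on 1 immunoprecipitation, in WS190 coordinates per the file headers; the caller is MACS by the peak names and MA2C by the source column, and its settings are not stated. Scores were deposited by the authors on a scale that is not stated. Read depth is unknown. Which weak or short peaks appear, and where a wide peak is broken, can depend on it, and this was not tested.

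Peak starts and ends were read 1-based from the deposited lists. Within a list, peaks did not overlap. Covered bases are the summed peak widths of a replicate in a region. Spans ran from the first to the last peak of a chromosome. Shares have exact Clopper-Pearson 95% intervals, which cover counting error only. No test was made, since the members were chosen by width and only 2 replicates exist. The merging was tested on simulated data. Members, comparisons and the naming rule were chosen with earlier results of these data known. Named regions are the 10 widest domains, the widest of each chromosome, the 5 with the most peaks, 3 on each side of 3 kb, the 5 highest and 5 lowest by width ratio and by score percentile, the 3 closest pairs, the 3 most isolated and the 3 fullest 500 kb windows; runs of domains, stretches without one and X domains were added after their values were seen. Scripts ran in Python 3.11.15 with pandas 2.3.3, intervals came from SciPy 1.17.1, arrays used NumPy 2.4.6, and figures were drawn with matplotlib 3.10.9.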

Additional observations from a re-analysis of the deposited data

How the results depend on the processing

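Of 76 recomputed values, 48 stayed within 1.5 times the reported count, the exact 95% interval of the reported share or median ratio, or 1 SD of the single-replicate distances. The share on X did so under 11 alternatives (4.66% to 6.94%) but was 9.68% at a limit of 5000 bp, which was chosen after seeing the data, and the central share under all but a centre of the middle 50%, which gave 57.6% by construction. A limit of 2500 bp gave 597 domains, 22.3% of shared regions, a neighbour distance of 96.7 kb and 11.6% with more than 1 peak of a replicate; 4000 bp gave 174, 6.51%, 284 kb and 25.3%. Joining peaks across gaps of up to 500 bp gave 17.7% broad, 117.5 kb and 37.1% with several peaks. Requiring 3000 bp covered by both replicates gave 255 domains, 9.54%, 188 kb and 23.1%, and 3000 bp in each replicate 9.73%, 183 kb, 23.1% and a width ratio of 1.02. A score of at least 100 gave 17.9% broad. Domains with 1 peak of each replicate, an alternative chosen after seeing the data, gave 11.9% and 172 kb. Without replicate 1 or replicate 2, peaks of 3 kb or more numbered 275 to 330, were 7.96% to 11.6% of a list and lay 159.8 to 180.5 kb apart. Stricter limits leave fewer domains, which are then farther apart; other causes were not tested. The number and spacing of domains thus rest on the chosen limit. A single list gives neither peaks per region nor a width ratio, so these were not computed there. No paired analysis was possible because only 1 group has values here.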

Other observations

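Of 865 regions marked in 1 list only, 12 were 3 kb or more, against 384 of 2672 shared regions. These 12 are not among the domains. Replicate 1 held 8, from 3019 to 5795 bp wide with scores of 73.6 to 910, and replicate 2 held 4, from 3041 to 5231 bp wide with scores of 72.9 to 318. In replicate 1, 3 of the 8 lay on chromosome V, at V:2376288-2379306 (score 73.6), at V:2485725-2488931 (910) and at V:2527885-2533679 (289). These 3, picked out after the values were seen, lay inside a stretch of 1509 kb that held no shared domain. The share of V among all regions marked in 1 list only was not computed, so nothing is read from this count. The widest in replicate 2 were at X:1883101-1888331 (score 206) and at I:3389582-3393954 (223).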
